A study of Arabidopsis thaliana with 3 samples.

Results

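The comparison of the Arabidopsis thaliana line 75-IV with wild type rested on 1 array a side, and it took in the 1859 of 3602 named genes whose signal lay above a floor of 14.9 on both arrays. The rule fixed the arrays and the floor, left out the control probe sets, and took for each gene the probe set that was brightest by mean log2 signal. The floor is the 40th percentile of all signals without the controls, and signals at or below it were not ranked. Line 75-IV alone had a further 147 genes above it, wild type alone had 94, and 1502 genes passed it on neither array. Wild type was Col-0 (N1092). Line 75-IV has the same background and was described as carrying an insertion in a Toc75 gene. One more array came from ppi1, also in Col-0, in which a T-DNA interrupts Toc33. RNA in each case came from whole seedlings at growth stage 1.02, kept on MS medium with 0.5% sucrose under 16 h of light and 8 h of dark. How many plants went into a sample was left blank.

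Plastid proteins made in the cytosol enter the organelle through a translocon in its outer envelope. Toc75 proteins are the beta-barrel family that supplies its channel, and Toc33 is a receptor that binds the incoming precursors. Plants short of import capacity are known for pale leaves and for lower expression of nuclear genes whose products go to the chloroplast. TOC75-III is the main channel gene of Arabidopsis, and TOC75-IV codes for a shorter relative.

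The mutated gene could not be checked. The label of the line printed AT4G09070, the gene table gave the symbol TOC75-IV to the neighbouring number AT4G09080, and the series title called the second mutant ppi3. No probe set was named for either locus alone, nor for TOC75-III, TOC33 (AT1G02280) or TOC34 (AT5G05000), and no gene on the list of plastid translocon components was named on the array. The line is called by its label throughout. With 1 array a side there is no replicate error and no test, so each difference below is one between 2 arrays and the number of arrays limits the precision. In RNA from whole seedlings, fewer cells of a type and less RNA per cell cannot be told apart. Both mutants were set against the same wild-type array, so a signal that is low or high on that array alone enters both differences, and the ppi1 signals are given side by side only. The arrays also differed in quality measures. Outlier cells numbered 504 for ppi1, 20 for line 75-IV and 11 for wild type. Average background was 61.98, 56.59 and 50.47 in the same order, and noise was 2.49, 1.94 and 1.65. The part of these measures in the signals below was not tested.

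The 2 arrays were much alike. The log2 ratio of line 75-IV over wild type had a median of 0.05 over the 1859 genes, with an SD of 0.38 across genes and with a 5th percentile of -0.51 and a 95th of 0.69. At least 2-fold higher signals in line 75-IV were found for 27 genes (1.45% of 1859) and at least 2-fold lower signals for 8 genes (0.430%). At 1.5-fold the numbers were 145 genes higher (7.80%) and 74 lower (3.98%), and by any amount 1025 genes were higher (55.1%) and 825 lower (44.4%). Of these 35 genes 2-fold apart in either direction (1.88%), 77.1% were thus higher in line 75-IV. Scaling on the 9 spike-in probe sets lowered all ratios, moved the all-gene median to -0.12 and gave 16 genes higher and 20 lower, a share of 44.4% higher. The spike-in probe sets were themselves uneven, with log2 ratios from -0.01 to 0.41 around the mean of 0.18 used for scaling. Centring on the median, quantile normalization and loess on level gave shares of 70.6%, 71.4% and 72.4%. The direction of a small shift shared by many genes therefore depended on the scaling.

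**Figure D1:**
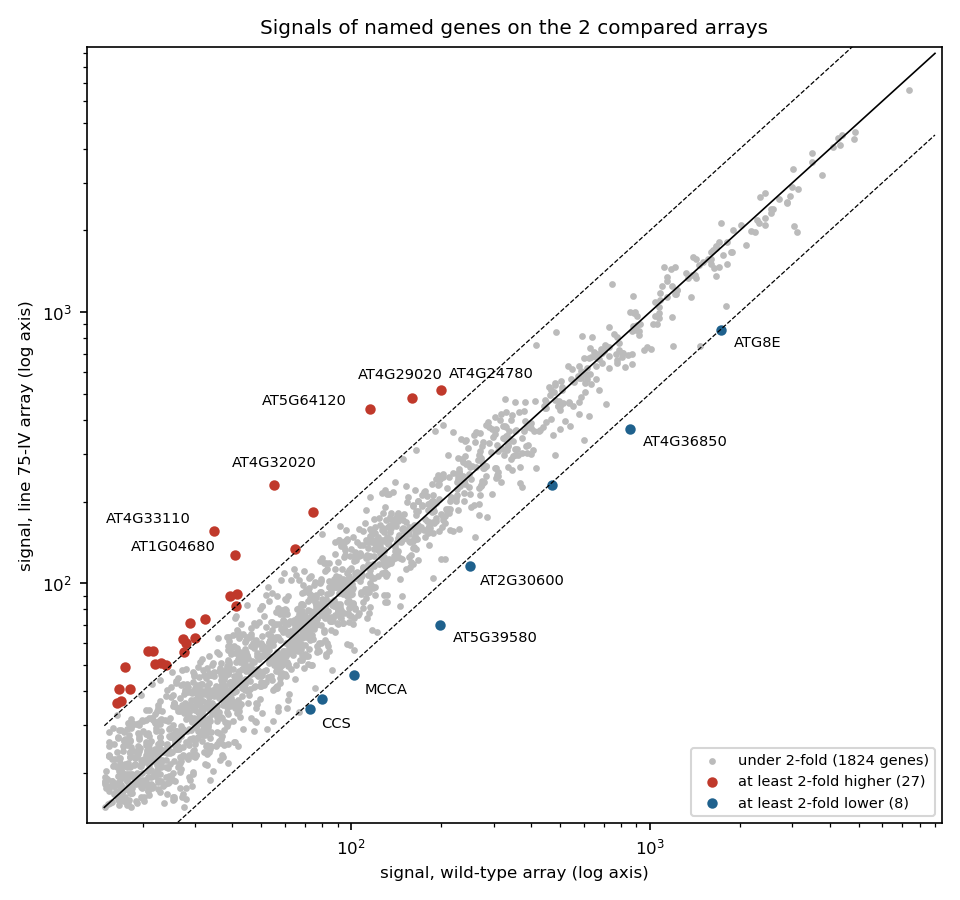
Each point is 1 of the 1859 named genes, with its signal on the wild-type array on the x axis and on the line 75-IV array on the y axis, both in log units. The solid line marks equal signals and the dashed lines 2-fold, beyond which lie 27 genes above and 8 below.

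Genes higher in line 75-IV were mostly dim in wild type and genes lower in it were brighter there. The median wild-type signal was 28.9 over the 27 higher genes, 224 over the 8 lower genes and 63.4 over all genes measured. Wild type is by definition the lower array of each higher gene and the higher array of each lower gene. Part of this contrast therefore follows from the array chosen. For 14 of the 27 higher genes the wild-type signal was below 29.8, which is 2 times the floor, while none of the 8 lower genes had a line 75-IV signal below it. Sorted into 4 level classes by mean signal, the dimmest 465 genes held 5 higher and 0 lower calls, the next 465 held 14 and 2, the next 464 held 5 and 2, and the brightest 465 held 3 and 4. The SD of the ratios was 0.38, 0.40, 0.38 and 0.34 in the same order.

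Genes with more than 1 probe set gave the single measure of repeatability on these arrays. In 86 genes 2 probe sets were above the floor on both arrays. Their log2 ratios differed by a median of 0.30 with a 90th percentile of 0.87, whereas the median size of a log2 ratio over all genes was 0.22. Signs were opposite in 40 of the 86 genes (46.5%), and 8 genes had probe sets more than 1 log2 unit apart. The widest gap was in AT2G03390, at -0.36 for the brighter and 1.39 for the dimmer probe set. A ratio under about 0.30 on the log2 scale is therefore no larger than the usual gap between probe sets of 1 gene. Probe sets of a gene share the labelled RNA, so this spread leaves out the differences between seedlings.

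**Figure D2:**
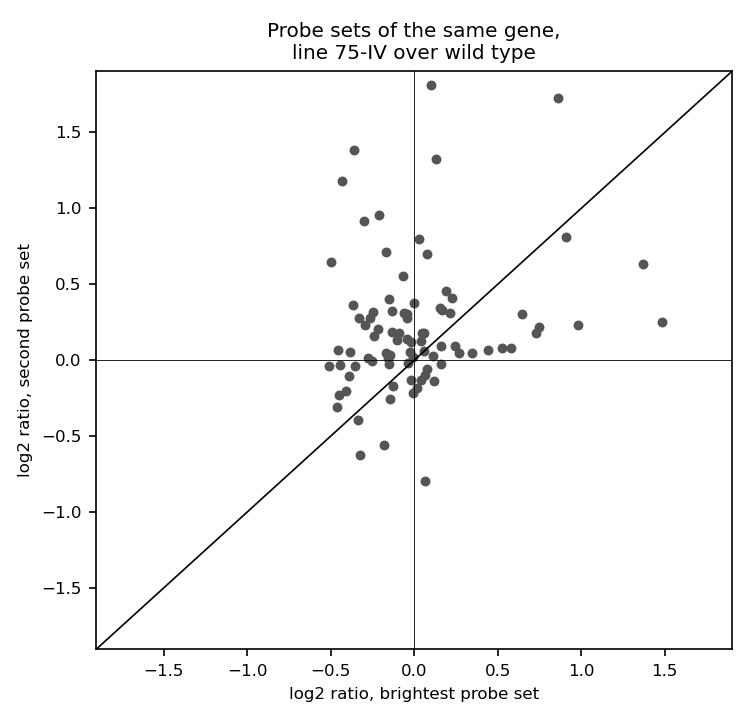
Log2 ratios of line 75-IV over wild type for the 86 genes with 2 probe sets above the floor on both arrays, with the brightest probe set on the x axis, the second on the y axis and equality as the diagonal. Points in the upper left and lower right, 40 of the 86, have opposite signs.

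The largest differences lay in genes of varied function. AT4G33110, which codes for a methyltransferase-like protein, had a signal of 155.2 in line 75-IV, 34.7 in wild type and 181.5 in ppi1. AT4G32020, a gene with no role stated here, read 229.7, 54.9 and 298.3 in the same order. Their log2 ratios were 2.16 (4.47-fold) and 2.06. AT4G29020, for a glycine-rich protein, read 483.5 in line 75-IV, 159.8 in wild type and 590.2 in ppi1, a log2 ratio of 1.60. For each of these genes wild type was the low array and the others were close to each other.

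Secretory or class III peroxidases, enzymes of the cell wall that use hydrogen peroxide, held genes at both ends. The gene AT5G64120 (PRX71) had a signal of 439.0 in line 75-IV, 115.8 in wild type and 777.7 in ppi1. Wild type was the lowest of the 3 arrays, and line 75-IV was 3.79-fold above it (log2 ratio 1.92). AT5G39580 (PRX62) ran the other way at 70.1, 198.2 and 410.0, so that line 75-IV was the lowest array, 2.83-fold below wild type (log2 ratio -1.50). AT3G01190 read 89.4 in line 75-IV, 39.4 in wild type and 28.7 in ppi1, a log2 ratio of 1.18 with line 75-IV the highest array. Below 2-fold, the bright PRXR1 read 1269.6 in line 75-IV against 747.8 in wild type and 903.4 in ppi1 (log2 ratio 0.76), and AT4G30170 read 236.7, 139.9 and 71.9 (0.76).

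Across the family, 28 of the 32 genes on the array were measured, and of the rest 2 passed the floor in line 75-IV alone and 2 in wild type alone. Of the 28, 24 were higher in line 75-IV and 4 lower, against 55.1% higher over all genes, with a median log2 ratio of 0.36 against 0.05. At 1.5-fold 8 of the 28 were higher and 1 lower, against 7.80% higher and 3.98% lower over all genes. Median centring, quantile normalization and loess each left 24 higher and 4 lower, and spike-in scaling gave 22 and 6 with a median of 0.18. The summed signal of the 28 genes was 7249 in line 75-IV, 5576 in wild type and 5432 in ppi1. For 16 of the 28 the probe set carries a suffix that marks possible cross-hybridisation, so family members may share signal.

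**Figure D3:**
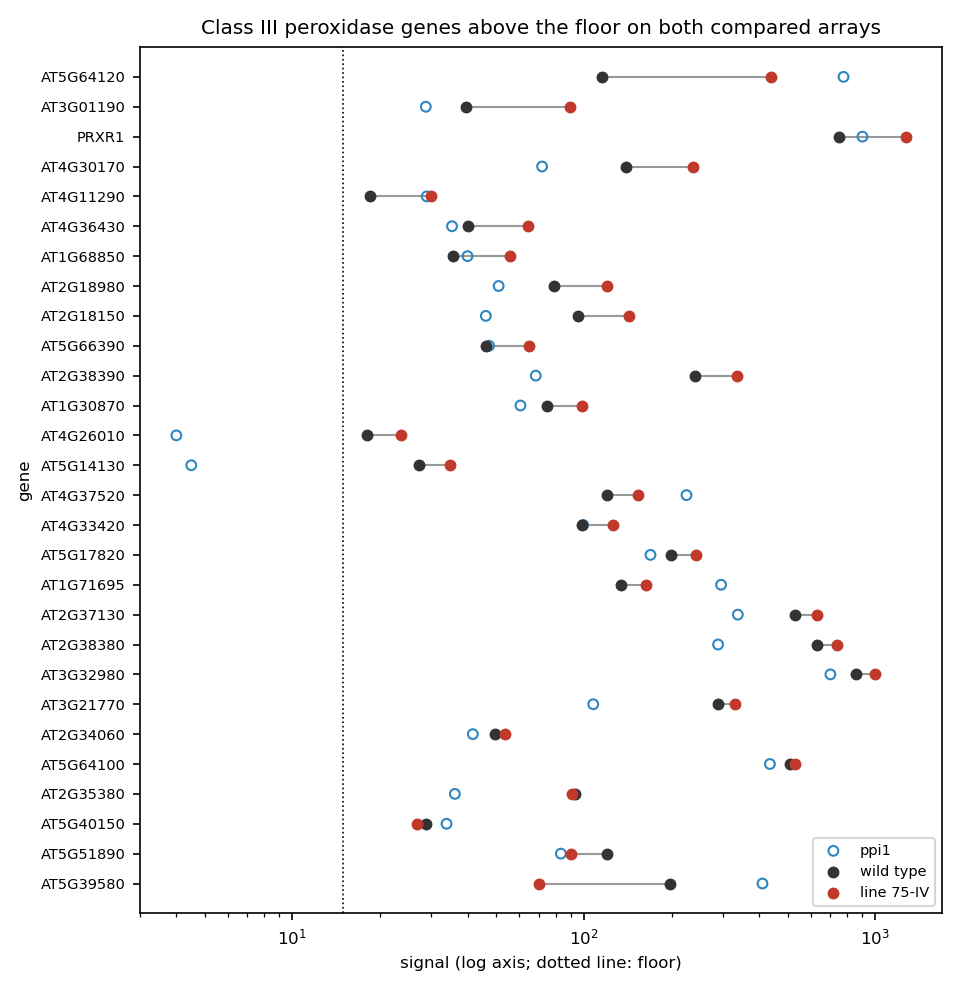
Signals on a log axis of the 28 class III peroxidase genes above the floor in line 75-IV (red) and wild type (black), with ppi1 as open blue circles and the floor of 14.9 as a dotted line. Genes run from the highest to the lowest ratio of line 75-IV over wild type, and red lies to the right of black in 24 of the 28.

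Several peroxidases and lectins of these lists are also root genes, and the root markers were looked at for that reason. Named on the array were 4 of 8 root markers, each above the floor. Against 55.1% of all genes, all 4 of these markers read higher in line 75-IV. They were AT1G52050 (31.4 against 21.6), AT1G52070 (71.3 against 28.9), AT4G11290 (30.0 against 18.4) and AT5G17820 (241.9 against 198.4). Summed, they gave 374.6 in line 75-IV, 267.3 in wild type and 268.0 in ppi1. AT4G11290 and AT5G17820 are also on the peroxidase list, and the others are jacalin lectins on the lectin list. The markers thus add no genes to those lists. No marker on the leaf, epidermis, seed or vasculature lists had a named probe set, and the part of tissue composition in these results was not tested.

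Jacalin lectins bind sugars. Of 8 genes measured on the list of lectins 6 were higher and 2 lower, against 55.1% higher over all genes. The median log2 ratio of the list was 0.37. AT1G52070 gave 71.3 in line 75-IV, 28.9 in wild type and 47.2 in ppi1 (log2 ratio 1.30). AT1G52100 read 341.5, 232.6 and 785.7 (0.55), and the curculin-like AT1G78830 was lower at 742.8, 976.8 and 1299.0 (-0.40). Quantile normalization and loess each gave 7 of 8 higher, and spike-in scaling 5 of 8. Among brighter genes the list stood closer to the all-gene median. Its median was 0.10 with 3 of 5 higher above the 60th percentile, and 0.04 with 2 of 4 higher above 4 times the floor. BGLU21, a beta-glucosidase of the root, read 845.1 in line 75-IV, 482.9 in wild type and 265.4 in ppi1 (0.81), while the other three measured genes of its family lay between -0.38 and 0.39.

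Enzymes that remodel pectin held 3 of the 27 higher genes among 15 genes measured, where 1.45% of all 1859 genes were that high. Loci were added to the lists after extreme ratios had been seen, so this count is a description only. Pectate lyases cut the pectin chain, and AT1G04680 of this family read 126.5 in line 75-IV, 40.8 in wild type and 96.4 in ppi1 (log2 ratio 1.63). The brighter lyase AT4G24780 read 514.5, 199.0 and 251.8 (1.37), and its second probe set gave 196.2, 126.4 and 60.4 (0.63). Both of its probe sets were thus higher in line 75-IV, although they placed ppi1 on different sides of wild type. Pectin methylesterases take methyl groups off pectin, and ATPMEPCRD read 56.1 in line 75-IV, 21.7 in wild type and 48.8 in ppi1 (1.37). AT1G23205, of the family of methylesterase inhibitors, read 151.6, 80.0 and 77.1 (0.92). The polygalacturonase-like AT1G60590 was above the floor in line 75-IV and ppi1 only, at 48.2, 14.1 and 18.0, at least 3.23-fold higher in line 75-IV than the floor. It had the largest such bound of any gene seen on 1 of the compared arrays.

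Over the whole pectin list the ratios were mixed. Of 15 measured members 9 were higher and 6 lower, with a median of 0.16, and spike-in scaling gave 7 higher and 8 lower with a median of -0.02. The median was higher among brighter genes, at 0.49 with 5 of 8 higher above the 60th percentile, and at 0.92 with 2 of 3 higher above 4 times the floor. ATPMEPCRB, at 57.0 in line 75-IV, 71.9 in wild type and 195.7 in ppi1, had the lowest ratio of the list at -0.34.

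Expansins loosen the wall during growth. In the expansin and xyloglucan list 7 of the 8 measured genes were higher in line 75-IV, against 55.1% over all genes. The median log2 ratio of the list was 0.34 against 0.05. EXPA15 read 60.1 in line 75-IV, 28.0 in wild type and 35.1 in ppi1 (1.10). EXPB1 read 74.5, 40.7 and 28.8 (0.87) and EXPA4 112.7, 64.5 and 65.4 (0.81), each with line 75-IV the highest array. EXPA8 read 479.2 in line 75-IV and 327.9 in wild type but 91.6 in ppi1 (0.55). The exception was EXGT-A3, an enzyme that cuts and joins xyloglucan, at 751.9, 1191.5 and 730.4 (-0.66). Under spike-in scaling 4 were higher and 4 lower. Of the other wall proteins 3 of 8 were higher, with a median of -0.11.

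Defence proteins had 18 of 24 measured members higher, 5 lower and 1 equal, against 55.1% higher over all genes, with a median of 0.23. PDF2.1, a small defensin peptide, read 49.9 in line 75-IV, 24.0 in wild type and 1.6 in ppi1 (log2 ratio 1.06), so that ppi1 was below the floor. The chitinase-family gene AT2G43590 read 310.1, 165.1 and 115.2 (0.91), the glucanase AT4G16260 207.9, 115.8 and 104.7 (0.84), and the thaumatin-like ATLP-1 82.1, 50.1 and 57.5 (0.71). Line 75-IV was the highest array for all of them. Against these, AT2G43530, for a peptide of the defensin-like kind, read 336.2, 600.1 and 379.7 (-0.84). Spike-in scaling gave 13 higher and 10 lower with a median of 0.06. WRKY factors, regulators of defence genes, lay between -0.19 and 0.19 in the 5 genes measured, with 3 further members past the floor in line 75-IV alone, and 7 genes of NBS-LRR resistance proteins were split into 4 higher and 3 lower.

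**Figure D4:**
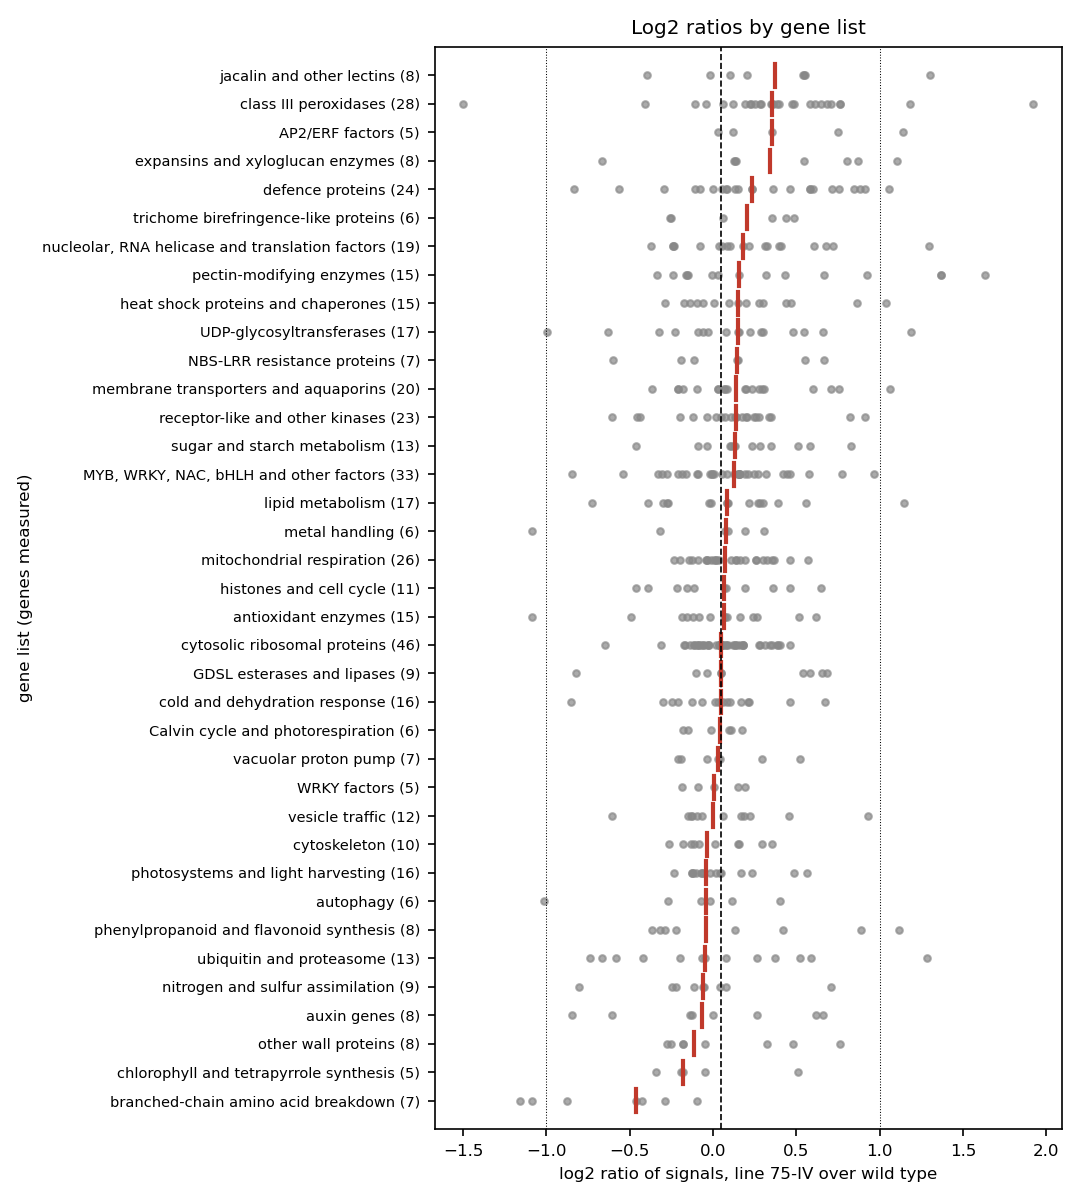
Log2 ratios of line 75-IV over wild type for every gene list with at least 5 genes above the floor on both arrays, each grey point a gene and each red bar the list's median. The dashed line is the all-gene median of 0.05 and the dotted lines are 2-fold, and medians run from -0.47 for branched-chain amino acid breakdown to 0.37 for lectins.

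The lowest list was named for the breakdown of branched-chain amino acids, a mitochondrial pathway that plants use when sugar is short. Not all its members belong to that pathway, since AT4G33150 acts on lysine. All 7 measured genes of the list were lower in line 75-IV, against 44.4% lower over all genes, with a median log2 ratio of -0.47. MCCA, the biotin-bearing subunit of methylcrotonyl-CoA carboxylase in leucine breakdown, read 45.8 in line 75-IV, 102.2 in wild type and 182.7 in ppi1 (-1.16). Its partner subunit MCCB was dimmer and less far apart, at 23.9, 32.1 and 45.3 (-0.43). For both subunits line 75-IV was the lowest array and ppi1 the highest.

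AT1G21400, which encodes the E1 alpha part of branched-chain keto acid dehydrogenase, read 37.5, 79.8 and 52.0 (-1.09). The valine pathway gene ALDH6B2 read 15.0, 27.5 and 17.9 (-0.87), just above the floor in line 75-IV. ETFQO, which passes electrons from this breakdown to the respiratory chain, read 34.7, 47.9 and 54.3 (-0.47). AT4G33150 acts on lysine and AT2G26800 at the end of the leucine pathway, and their ratios were -0.29 and -0.10. D2HGDH was above the floor in wild type only, at 8.5 in line 75-IV and 18.5 in wild type. All measured genes of the list were lower under every scaling tried. Higher floors left few of them, 2 genes at the 60th percentile and 1 at 4 times the floor, the latter at -0.10. The wild-type signals of the 7 genes, from 26.6 to 102.2, lay in the dim and middle part of the range.

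Other genes linked to starvation were found on both sides. ATG8E, a ubiquitin-like protein that coats the autophagosome, read 857.6 in line 75-IV, 1732.6 in wild type and 1707.3 in ppi1 (log2 ratio -1.01, 2.02-fold), so that line 75-IV was low and the other arrays were close together. Of its family ATG8F read 674.6, 623.2 and 313.2 (0.11), ATG8D was at 0.40 and ATG8C at -0.27, and the autophagy list had 2 genes higher and 4 lower. The senescence-linked sugar transporter SAG29 was higher at 54.8, 36.2 and 84.4 (0.60). The other two genes of the list of dark and sugar starvation were lower, AT3G15450 at 1355.7, 1660.6 and 1918.8 (-0.29) and AT1G21400 as given above, and the median of its 3 genes was -0.29.

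Of the remaining lower genes, AT4G36850, for a membrane protein with PQ-loop repeats, read 370.1 in line 75-IV, 859.2 in wild type and 710.0 in ppi1 (log2 ratio -1.22). CCS, the copper chaperone that loads superoxide dismutase, read 34.4, 73.0 and 50.9 (-1.09). AT4G33960 read 230.1, 469.2 and 534.3 (-1.03). For these genes line 75-IV was the lowest of the 3 arrays. AT2G30600, for a BTB/POZ protein, read 115.9, 249.5 and 419.8 (-1.11), but its other probe set read 30.5, 11.6 and 105.9, with wild type below the floor and the direction opposite. The glucosyltransferase UGT84A3, which acts on hydroxycinnamates, missed the 2-fold rule narrowly at 33.5, 66.8 and 53.3 (1.99-fold lower).

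**Figure D5:**
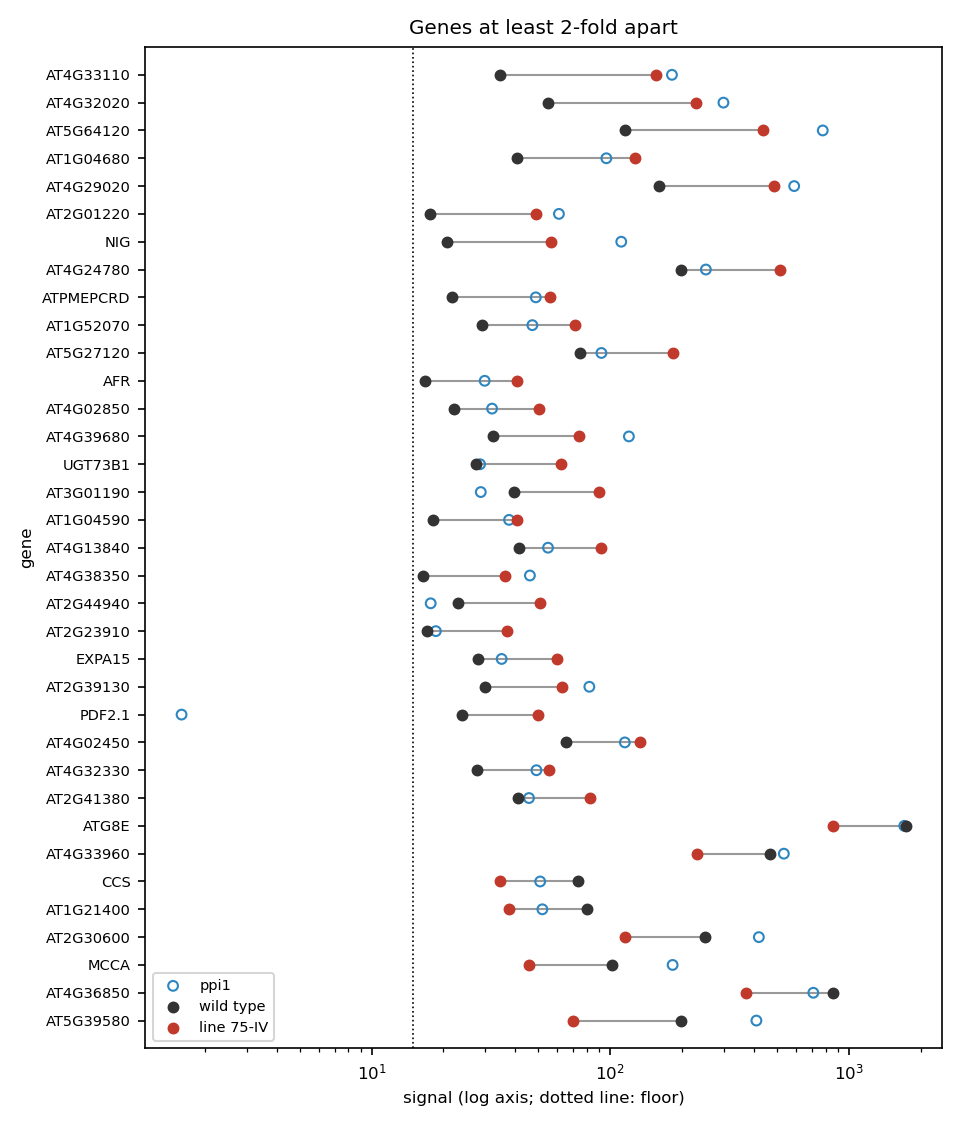
Signals on a log axis of the 27 genes at least 2-fold higher and the 8 genes at least 2-fold lower in line 75-IV (red) than in wild type (black), from the highest ratio at the top to the lowest, with ppi1 as open blue circles. The dotted line is the floor of 14.9, below which PDF2.1 lies in ppi1 at 1.6.

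Genes for photosynthesis, the products of which pass through the translocon, had ratios near the all-gene median. None of the 16 photosystem and light-harvesting genes was 1.5-fold apart in either direction, a count near what the all-gene shares of 7.80% higher and 3.98% lower give for so few genes, with 7 higher, 9 lower and a median log2 ratio of -0.04. The bright PSAN, a photosystem I subunit, read 3193.5 in line 75-IV, 3755.6 in wild type and 1628.9 in ppi1 (-0.23). The largest ratios were those of PAM68, an assembly factor of photosystem II, at 75.6, 51.2 and 51.1 (0.56), and of LHCB4.3, a minor antenna protein, at 174.1, 124.2 and 58.9 (0.49). The sign of the list's median turned with the scaling, to 0.05 under quantile normalization and to 0.02 under loess, and was -0.22 under spike-in scaling.

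In carbon fixation, 3 of 6 genes were higher and 3 lower. RCA, the activase of Rubisco, read 4332.0 in line 75-IV, 4813.1 in wild type and 4096.9 in ppi1 (-0.15), and the Calvin cycle kinase PRK read 1665.6, 1888.4 and 1130.1 (-0.18). In tetrapyrrole synthesis, which makes chlorophyll and haem, 1 gene of 5 was higher and 4 lower under each of the 4 other scalings as well, with a median of -0.18. PORB, a light-dependent protochlorophyllide reductase, read 166.0, 189.9 and 90.8 (-0.19), and the exception GSA1, an early enzyme, 155.7, 109.5 and 201.0 (0.51). HEMA2, whose product starts the pathway, was at -0.34, and the remaining ratios were smaller than the median gap of 0.30 between probe sets of a gene.

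Growth-related housekeeping lists stood near the all-gene median. Of 46 cytosolic ribosomal protein genes 30 were higher and 16 lower, with a median of 0.05, and centring on the median gave 23 and 23. The one farthest from 0 was AT4G26230, at 1978.4 in line 75-IV, 3101.1 in wild type and 2088.2 in ppi1 (-0.65). Mitochondrial respiration had 17 of 26 genes higher, against 55.1% over all genes, with a median of 0.07. None of the 26 was 1.5-fold apart, against 7.80% higher and 3.98% lower over all genes. Histones and cell cycle genes had a median of 0.07, the vacuolar proton pump 0.03 and the cytoskeleton -0.04.

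Nucleolar and translation factors had 14 of 19 genes higher and 5 lower, against 55.1% higher over all genes. Their median of 0.18 became 0.00 under spike-in scaling. AT5G27120, for a NOP58-like protein of the particles that guide ribosomal RNA modification, read 183.0 in line 75-IV, 74.7 in wild type and 91.9 in ppi1 (log2 ratio 1.29). The elongation factor subunit gene AT1G09640 read 361.6, 219.7 and 412.1 (0.72). Among 15 chaperone genes 10 were higher, against the same 55.1% over all genes. AT4G02450, for a p23-type partner of HSP90, read 133.2, 65.0 and 115.2 (1.04), and AT3G09440, of the cytosolic HSP70 family, 756.8, 416.5 and 365.1 (0.86), with its second probe set at 1.73. Both probe sets of AT3G09440 were higher in line 75-IV.

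Hormone and light genes were few. HAT2, a homeodomain factor of the auxin response, read 104.2 in line 75-IV, 187.2 in wild type and 120.4 in ppi1 (log2 ratio -0.85). WES1, which conjugates auxin to amino acids, was also lower at 85.1, 129.5 and 149.6 (-0.61), while IAGLU, which joins auxin to glucose, was higher at 144.3, 91.3 and 38.6 (0.66). The 8 auxin genes measured were thus split, with 3 higher, 4 lower and 1 equal. EIN3, the ethylene response factor, read 729.0, 1008.3 and 824.7 (-0.47). AFR, a kelch-repeat F-box protein of phytochrome A signalling, read 40.7, 16.7 and 29.8 (1.29), and the clock gene GI 141.5, 142.1 and 175.1 (-0.01).

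All 5 measured AP2/ERF factors, a family of plant transcription regulators, were higher, against 55.1% over all genes, with a median of 0.35. However, quantile normalization and spike-in scaling each gave 3 of 5. The lower floor at the 20th percentile gave 5 of 6 with a median of 0.23. AT2G44940 led them at 50.6 in line 75-IV, 23.0 in wild type and 17.7 in ppi1 (1.14). The family member AT2G33710 ran the other way, at 14.2, 22.6 and 23.7, with line 75-IV below the floor. On the separate list of MYB, WRKY, NAC, bHLH and other factors 20 of 33 measured genes were higher and 13 lower, with a median of 0.13. The bHLH gene AT4G29100 had the highest ratio of that list at 38.6, 19.8 and 30.5 (0.96).

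Lists of transport, signalling and sugar use had most of their genes higher under the deposited scaling. So had the set of all genes, with 55.1% higher and a median log2 ratio of 0.05. Membrane transporters had 15 of 20 genes higher with a median of 0.14, kinases 17 of 23 with 0.13, and sugar metabolism 10 of 13 with 0.13. Each of these medians became -0.04 under spike-in scaling. Among kinases 8 more genes passed the floor in line 75-IV alone and 1 in wild type alone, where all named genes gave 147 and 94. The amino acid transporter gene AT2G39130 read 62.7 in line 75-IV, 30.0 in wild type and 81.8 in ppi1 (log2 ratio 1.06). GTR1, a carrier of glucosinolates, read 102.4, 62.6 and 72.2 (0.71). PWD, which phosphorylates starch before it is broken down, read 102.8, 58.0 and 84.5 (0.83), and the sulfur assimilation gene APS3 was lower at 148.5, 259.1 and 191.5 (-0.80).

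UDP-glycosyltransferases, which add sugars to small molecules, had 10 of 17 genes higher, against 55.1% over all genes. Among the higher ones was UGT73B1, at 62.3 in line 75-IV, 27.4 in wild type and 28.5 in ppi1 (log2 ratio 1.19). AT2G23910, which resembles cinnamoyl-CoA reductases of lignin synthesis, read 36.9, 17.0 and 18.6 (1.12). For both genes ppi1 was close to wild type. AT4G13840 (CER26), which takes part in making long wax chains, read 91.2, 41.3 and 54.9 (1.14). Among cold and dehydration genes 10 of 16 were higher, with a median of 0.05, and the farthest was the late-embryogenesis gene M17, lower at 47.7, 86.2 and 16.9 (-0.85).

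The other higher genes were dim in wild type, between 16.4 and 41.1. AT2G01220 read 48.9 in line 75-IV, 17.5 in wild type and 61.0 in ppi1 (log2 ratio 1.48), but its other probe set read 23.6, 19.8 and 21.6 (0.25). NIG, a GTPase, read 56.3, 20.8 and 111.3 (1.44), and AT4G39680, with a SAP domain, 73.8, 32.3 and 119.8 (1.19). AT4G38350, of the patched-like membrane proteins, was at 1.14, AT4G32330, of the TPX2 family of microtubule proteins, at 1.01, and the methyltransferase gene AT2G41380 at 1.00. AT4G02850 and AT1G04590, with ratios of 1.19 and 1.17, have no role stated here.

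Genes on 1 side of the floor allowed only bounds. Of the 147 genes above it in line 75-IV only, 10 were at least 2-fold above the floor, and of the 94 in wild type only, 2 were. AT4G36195 read 46.7 in line 75-IV, 9.8 in wild type and 38.4 in ppi1, at least 3.13-fold higher, and AT3G52610 read 39.5, 10.7 and 50.0, at least 2.65-fold. AT4G02940 read 39.5, 5.7 and 19.4, also at least 2.65-fold, and AT4G17280 36.2, 9.3 and 13.9, at least 2.43-fold. In the other direction AT1G62420 read 14.8, 35.1 and 14.6, at least 2.36-fold higher in wild type than the floor. Line 75-IV had more genes above the floor, with a median signal over probe sets of 24.2 against 22.1.

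Among control probe sets above the floor on both arrays, 1 differed by more than any named gene measured. For glyceraldehyde-3-phosphate dehydrogenase (GAPDH), the probe set near the 5' end of the transcript read 940.5 in line 75-IV, 75.2 in wild type and 787.9 in ppi1, so that wild type alone was low. Line 75-IV was 12.5-fold above wild type there. At the 3' end the signals were 2275.0, 1408.9 and 1268.8, with line 75-IV 1.61-fold above wild type. The 3' signal was 2.42 times the 5' signal in line 75-IV, 18.7 times in wild type and 1.61 times in ppi1. The 5' probe set of ubiquitin differed by 1.19-fold and its 3' probe set by 1.01-fold. The middle probe sets read 2943.5, 1572.0 and 2160.6 for GAPDH and 1786.7, 1174.3 and 1802.5 for ubiquitin. Wild type was the lowest array for both middle probe sets. Where each gene's probe set lies along its transcript was not used here, and the part of these control differences in the 27 higher genes was not tested.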

How the data were processed

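Whole-seedling RNA of wild type, ppi1 and line 75-IV was measured on 1 Affymetrix array each. Each probe set has 1 deposited signal per array, linear and never negative, as processed by the authors. The labels give 285156 cells per array, and the software behind the signals is not given in the sources used here. Means trimmed by 2% were 100.176 in line 75-IV and 100.178 in wild type, so the table was used as deposited. Equal means hide any difference in total mRNA.

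Of the probe sets, 3794 were named for 1 gene by the platform annotation, 70 for several and 4383 for none, beside 50 controls. Of the 3602 genes, 3592 matched the RefSeq gene table. The floor is the 40th percentile (14.9), and a gene on 1 side of it got a bound against the floor. Log2 ratios were taken with no pseudocount, using Python 3.11.15, pandas 2.3.3, numpy 2.4.6 and statsmodels 0.14.6. The procedure was run on simulated data with planted shifts larger than the 2-fold threshold. That run does not show how reliable calls near the threshold are. Arrays carry no replicates, so their number limits the precision, and there are no p-values or standard errors.

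The genes and lists were chosen with earlier results of these data known. The gene table has no descriptions, so loci were added to the lists by hand after the most extreme ratios had been seen, and the lists are descriptions only. The genes named were to be those at least 2-fold apart, up to 4 members of each list with the largest ratios, and up to 6 genes above the floor on 1 array with the largest bounds. Other names were chosen after their values were seen: further members of lists, the root markers, and genes named for their second probe set. Alternatives were other scalings, floors, thresholds and choices of probe set.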

Additional observations from a re-analysis of the deposited data

How the results depend on the processing

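With 1 array a side no alternative carries an error, and low signals, where differences between arrays weigh most, limit what can be called. Counts of genes at least 2-fold higher and lower, 27 and 8 as deposited, became 16 and 20 under spike-in scaling, which also moved the all-gene median log2 ratio to -0.12. They became 86 and 34 with the floor at the 20th percentile, 385 and 282 with no floor, and 5 and 5 at 4 times the floor. With the floor at the 60th percentile 9 genes were higher, and with probe sets without a suffix 5 were lower. At 1.5-fold the counts were 145 and 74 and at 3-fold 5 and 0. Over all probe sets, named or not, an alternative chosen after seeing the data, they were 90 and 37. The added or lost calls follow from the construction of each floor and threshold, and for spike-in scaling the cause was not tested. Median centring, quantile normalization, loess, the median over probe sets and the brightest probe set over the 2 compared arrays changed each count by less than 1.5 times. Of the 27 higher and 8 lower genes, 16 and 8 were called again under spike-in scaling, 20 and 7 under quantile normalization, and 21 and 7 under loess. For single genes 2 values moved by more than 1.5-fold: AT2G01220 to 0.87 with the median over probe sets and AT4G24780 to 0.63 without suffixed probe sets. For list medians 3 values did: pectin-modifying enzymes to 0.92 at 4 times the floor, with 3 genes left, and light signalling and clock, which has 2 genes, to -0.01 with 1 gene left at that floor and at the 60th percentile. No named gene that was called turned its sign. No paired analysis was possible because each group had 1 array. Leaving out a replicate was not possible for the same reason.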

Other observations

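Some gene groups outside the account above held single genes with large ratios. GDSL esterases and lipases, which cleave ester bonds in lipids, had 6 of 9 measured genes higher in line 75-IV and 3 lower, with 3 more above the floor in wild type only. AT2G03980 of that family read 34.5 in line 75-IV, 61.0 in wild type and 49.5 in ppi1 (log2 ratio -0.82). Vesicle traffic genes were split into 6 higher and 6 lower, led by PRA1.B4, a membrane protein of the secretory pathway, at 363.5, 190.6 and 518.6 (0.93). Of 13 genes for ubiquitin and the proteasome 6 were higher and 7 lower, and UBC35, a ubiquitin-conjugating enzyme, read 123.0, 205.3 and 240.8 (-0.74). All 4 measured serine carboxypeptidases were higher, against 55.1% over all genes, with a median of 0.29. However, scpl26, at 0.07, had a second probe set at -0.79.

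Some probe sets that the annotation names for no gene had larger differences than any named gene measured. Of 2592 such probe sets that passed the floor on each array, 56 (2.16%) were at least 2-fold higher in line 75-IV and 29 (1.12%) at least 2-fold lower. The shares for named genes were 1.45% and 0.430%. Those shares count only the brightest probe set of each gene, so the units differ. Probe set 20640_s_at read 1161.4 in line 75-IV, 33.4 in wild type and 1325.5 in ppi1, a 34.8-fold difference, and 14644_s_at read 333.5, 26.1 and 563.9, a 12.8-fold difference. Both were low on the wild-type array only. In the other direction 13916_at read 107.9, 421.2 and 597.6 and was 3.90-fold lower in line 75-IV.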
